A study of Mus musculus with 346 samples.

Results

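The genes described here are 9 that act in MHC class I antigen presentation or in its control by interferon: B2m, H2-K1, H2-D1, Tap1, Tap2, Tapbp, Psmb8, Psmb9 and Irf1. They were taken by name from the per-cell read counts of single mouse mammary cells, after Entrez gene identifiers had been matched to symbols, and are 9 of 25141 genes analysed. All 9 were found in the files. Their levels were compared between 3 stages of postnatal mammary development, and between cells with the basal keratin Krt14 and cells with the luminal keratins Krt8 or Krt18.

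Class I molecules carry peptides from the cytosol to the surface of nearly every nucleated cell, where CD8+ T cells read them. The heavy chains H2-K1 and H2-D1 pair with the light chain B2m, Tap1 and Tap2 form the transporter that moves peptides into the endoplasmic reticulum, and Tapbp (tapasin) bridges the transporter to the empty class I molecule. Psmb8 and Psmb9 are catalytic subunits of the immunoproteasome, which replace their constitutive counterparts in cells exposed to interferon gamma. Irf1 is a transcription factor that interferon gamma induces and that in turn acts on several of the other genes. Epithelial cells carry the pathway at a resting level, which differs between cell types and can be raised by interferon.

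The cells came from untreated FVB/NJ mice at pre-puberty (2 weeks of age), puberty (4.7 to 4.9 weeks) and adulthood (10 weeks), with 8 mice given for each stage. The paper's figure legend gives other numbers of mice per sort, which differ between stages, and several independent experiments. According to the labels they were total mammary epithelium, and per the study's methods cells with CD45, CD31 or Ter119 on the surface had been sorted out before capture on the Fluidigm C1 microfluidic system. Of 144 pre-pubertal, 136 pubertal and 66 adult cells, 116, 119 and 44 passed a coverage filter of at least 100000 reads and 1500 detected genes, and their median depth was 296570, 574145 and 334209 reads. No label ties a cell to a mouse, so that each stage is 1 sample, no test between stages was possible, and the intervals below cover counting error only (reads were not tagged by molecule, and copies of one cDNA are not independent).

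The label of the pre-pubertal cells was not matched by most of their epithelial markers. Of 11 epithelial marker genes the median pre-pubertal cell had a read in 0, against 8 for the median pubertal and 6 for the median adult cell, and Epcam was found in 12.9% of pre-pubertal cells and in 96.6% and 95.5% at the later stages. The 14 Schwann cell markers instead summed to 16155 CPM (read counts per 1000000 reads of a group) at pre-puberty, but to 1455 CPM in pubertal and 483 CPM in adult cells, while 6 fibroblast markers summed to 7489, 1693 and 1235 CPM. The collagens, led by Col3a1, carried the fibroblast sum, whereas Dcn stood at 354, 843 and 857 CPM, Lum at 41.9, 72.0 and 13.0 CPM and Pdgfra at 13.2, 10.1 and 34.0 CPM. Every comparison with pre-puberty below is therefore also one between cells that differ in these markers, and stage and cell type cannot be told apart. A list of 10 basal markers, Krt14 and Krt5 among them, separated pre-puberty from puberty less. The median cell had a read of 2 of them before puberty, 2 during it and 6 in adults. Cells with 3 or more numbered 44 of 116, 53 of 119 and 32 of 44. These values mix keratin classes, which are set out below. The list summed to 10963 CPM in 17 pre-pubertal cells with Krt14, and to 315 CPM in 97 without Krt14, Krt8 or Krt18. At puberty it summed to 11968 CPM in 29 cells with Krt14 and to 398 CPM in 80 with Krt8 or Krt18 only. Krt14 is itself on the list, so part of this split is built in. The paper reads the youngest cells as epithelium with a basal-like program, which was not tested here. Leukocyte genes were close to absent: Ptprc (CD45) stood at 0.10, 0.10 and 0 CPM, and 15 immune markers summed to 13.1, 0.891 and 142 CPM, of which the adult sum came mostly from 1 cell.

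Of the 9 genes 7 lie on chromosome 17 in GRCm38, most of them in the major histocompatibility complex: Tapbp (17:33919478-33929290), H2-K1 (17:33996012-34000619), Psmb9 (17:34182030-34187330), Tap1 (17:34187556-34197225), Psmb8 (17:34198195-34201454), Tap2 (17:34204479-34216321) and H2-D1 (17:35263094-35267497). B2m lies on chromosome 2 (2:122147687-122153082) and Irf1 on chromosome 11 (11:53770014-53778374). Psmb9 and Tap1 are read in opposite directions from a shared stretch of 225 bases. RefSeq held promoter windows of GRCm38.p6 for 8 of the 9 genes, and 5 stretches are shown, 1 each for the light chain, a heavy chain, an immunoproteasome subunit and Irf1, and the 1 that Psmb9 and Tap1 share. Capitals mark matches on either strand to the interferon-stimulated response element core GAAANNGAA or its closer-spaced variant GAANNGAAA, to the gamma-activated (GAS) motif TTCNNNGAA, or to the class I kappa-B motif GGGATTCCC. All but the shared stretch are the 200 bases before an annotated start, which for Irf1 is the upstream one.
B2m, plus strand, chr2:122147487-122147686: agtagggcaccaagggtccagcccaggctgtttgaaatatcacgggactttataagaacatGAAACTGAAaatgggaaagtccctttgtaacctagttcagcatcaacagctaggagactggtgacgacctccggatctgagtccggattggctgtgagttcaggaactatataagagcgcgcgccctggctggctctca
H2-D1, plus strand, chr17:35262894-35263093: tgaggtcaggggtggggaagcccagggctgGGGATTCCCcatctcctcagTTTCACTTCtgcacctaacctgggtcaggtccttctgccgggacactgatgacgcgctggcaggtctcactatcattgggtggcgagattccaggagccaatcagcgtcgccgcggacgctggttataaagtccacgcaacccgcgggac
Psmb8, plus strand, chr17:34197995-34198194: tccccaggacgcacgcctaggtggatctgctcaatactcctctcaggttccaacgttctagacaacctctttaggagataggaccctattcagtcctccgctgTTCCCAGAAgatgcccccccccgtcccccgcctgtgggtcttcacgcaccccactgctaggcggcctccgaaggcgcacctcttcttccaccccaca
Irf1, plus strand, chr11:53769814-53770013: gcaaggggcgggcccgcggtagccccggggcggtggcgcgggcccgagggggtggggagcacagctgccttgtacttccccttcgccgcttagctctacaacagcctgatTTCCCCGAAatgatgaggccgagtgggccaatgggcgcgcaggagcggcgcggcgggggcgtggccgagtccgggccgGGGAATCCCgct
Psmb9 and Tap1 shared stretch, strand of Tap1, chr17:34187331-34187555: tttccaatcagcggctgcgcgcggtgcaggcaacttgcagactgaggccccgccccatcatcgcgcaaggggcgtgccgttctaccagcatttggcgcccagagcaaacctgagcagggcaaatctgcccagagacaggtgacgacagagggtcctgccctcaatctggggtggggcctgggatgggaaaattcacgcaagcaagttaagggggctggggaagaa

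The response element core was found in the window of B2m alone (GAAACTGAA, the capitals above), against 8.56% of all 32851 promoter windows. H2-D1 held the closer-spaced variant (from position -150 relative to the start, matched on the minus strand) and the kappa-B motif (-170 to -162), and H2-K1 held the same pair. The variant stood in 7.52% and the kappa-B motif in 0.353% of windows, 116 windows in all. A run of 47 identical bases that includes the kappa-B motif was common to the windows of H2-K1 and H2-D1 and to no window of another gene outside the 9. GAS matches were present in the windows of Psmb8 (TTCCCAGAA, -97 to -89) and Irf1 (TTCCCCGAA, -90 to -82), against 8.30% of windows, and Irf1 also held the kappa-B motif on the minus strand (-12 to -4). The window of another annotated start of Irf1 (11:53770473) held none of these motifs. In the stretch between Psmb9 and Tap1 none of these letters occurred. A match is a description of the reference strain and does not show that a factor binds.

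B2m was the member with the highest level per transcript length at each stage, with 1132, 1925 and 3180 RPKM (CPM per kilobase of transcript) from the youngest stage to the oldest. Irf1 was next at pre-puberty (320 RPKM), H2-D1 at puberty (333 RPKM) and H2-K1 in the adult (419 RPKM). The peptide transporter was the scarcest part of the pathway, with Tap1 at 20.1, 5.37 and 7.81 RPKM and Tap2 at 1.61, 7.11 and 4.82 RPKM. With 1 sample per stage no spread is available to say which neighbours in this order differ.

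**Figure D1:**
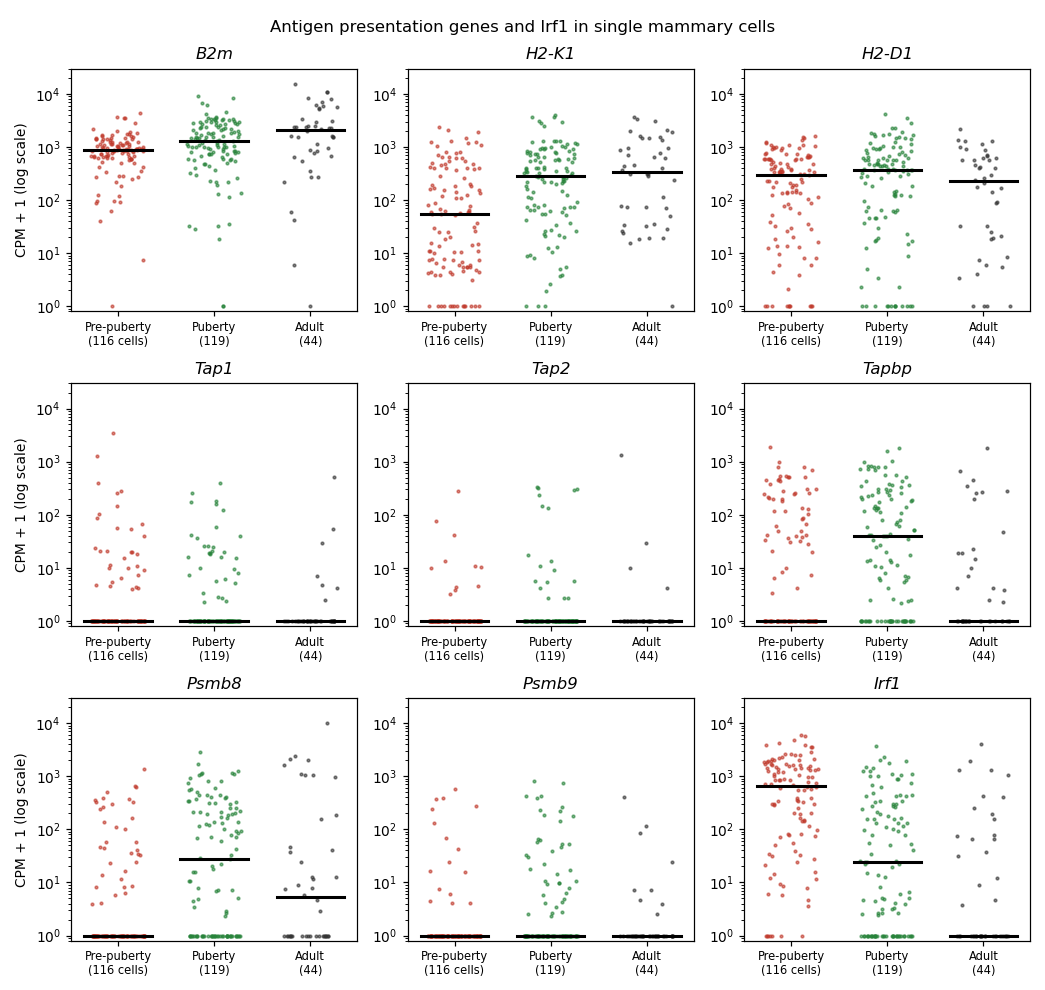
Each point is 1 cell and gives its CPM plus 1 on a log axis, by stage, for the 9 genes; bars are medians over 116, 119 and 44 cells, and points at 1 are cells without a read. The clouds of B2m sit higher at the later stages (medians 891, 1293 and 2122 CPM), that of Irf1 sits lower (657, 23.3 and 0 CPM), and Tap1 and Tap2 have a median of 0 at each stage.

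Light and heavy chains were higher at the later stages for B2m and H2-K1 but not evenly so for H2-D1. Summed over cells, pre-pubertal B2m stood at 972 CPM (exact 95% Poisson interval 962 to 981), pubertal B2m at 1652 (1642 to 1661) and adult B2m at 2728 (2704 to 2752). Single cells ranged from 0 to 4385 CPM at pre-puberty, from 0 to 9299 at puberty and from 0 to 15253 in the adult, with medians of 891, 1293 and 2122 CPM. The 3 ranges thus overlapped widely while the medians were in the same order as the sums.

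The sums of H2-K1 were 212 (208 to 217), 467 (462 to 472) and 690 CPM (678 to 702) from the youngest to the oldest stage, with cell medians of 53.3, 281 and 338 CPM and highest cells of 2409, 3960 and 3734 CPM. H2-D1, its partner heavy chain, was at 362 (356 to 368), 578 (572 to 584) and 463 (453 to 473) CPM, with cell medians of 300, 368 and 224 CPM and highest cells of 1592, 4167 and 2222 CPM. The lowest cell had no read of either gene at any stage. Per transcript length H2-D1 stood above H2-K1 at pre-puberty (209 against 129 RPKM) and puberty (333 against 284 RPKM), and below it in the adult (267 against 419 RPKM). In the reference annotation 4.64% of the 100-base windows of the H2-D1 transcript were identical to another gene such as H2-Q1 or H2-T23, and those of H2-K1 to none. How reads that fit several class I genes were handled is not given in the sources used here, and the heavy chains of FVB/NJ mice differ from those of the reference strain.

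The transporter genes rested on few cells. In the same order of stages Tap1 summed to 59.1 (56.8 to 61.6), 15.9 (14.9 to 16.8) and 23.0 CPM (20.9 to 25.3), but 1 pre-pubertal cell of 3490 CPM held 58.6% of the reads of its stage and 1 adult cell of 512 CPM held 90.2%. With the strongest cell of every stage removed the levels were 24.7, 12.0 and 2.34 CPM. Tap2 summed to 4.01, 17.7 and 12.0 CPM, with 71.2%, 29.6% and 95.1% of the reads in 1 cell. No order of stages for either gene can be read from such sums. Tapbp was at 141 CPM (137 to 144), 193 (189 to 196) and 120 (115 to 125), with highest cells of 1875, 1832 and 1792 CPM and a median above 0 at puberty only (38.7 CPM). In the adult 50.9% of Tapbp reads came from 1 cell, and the level without it was 60.9 CPM.

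Of the immunoproteasome subunits, Psmb8 stood higher at both later stages than before puberty. Its sums were 60.3 (57.9 to 62.7), 196 (193 to 199) and 385 CPM (376 to 394) in pre-pubertal, pubertal and adult cells. The cells ran from 0 to 1375, from 0 to 2855 and from 0 to 10149 CPM, with medians of 0, 26.6 and 4.23 CPM, so the adult sum was carried by a minority of strongly positive cells. With the strongest cell of every stage removed Psmb8 was at 47.1, 182 and 299 CPM. Psmb9, the scarcer of the pair per length at each stage, was at 20.2 (18.8 to 21.6), 46.4 (44.8 to 48.1) and 25.4 (23.2 to 27.8) CPM, with a median of 0 at each stage, and 1 adult cell held 88.0% of the adult reads (3.23 CPM without it).

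Irf1 went the other way. Pre-pubertal cells summed to 1077 CPM (1067 to 1087), pubertal cells to 275 (271 to 279) and adult cells to 290 (283 to 298). The cells ran from 0 to 6008, from 0 to 3730 and from 0 to 4126 CPM, with medians of 657, 23.3 and 0 CPM. On the RPKM scale Irf1 thus stood above H2-K1 and H2-D1 at pre-puberty and below both at the later stages (81.8 and 86.4 RPKM). A set of 12 immediate early genes (among them Fos, Egr1 and Zfp36, transcripts that respond quickly to stimulation, cell dissociation included), chosen after the values of Irf1 had been seen, summed to 14699, 4978 and 11622 CPM over the same stages. Irf1 and this set were both highest at pre-puberty, but between puberty and adult the set was higher in the adult while Irf1 differed by 0.08 on the log2 scale. Their part in the Irf1 difference was not tested.

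In log2 ratios of summed CPM (with 5 CPM added), puberty over pre-puberty gave 1.62 for Psmb8, 1.33 for Tap2, 1.12 for H2-K1, 1.03 for Psmb9, 0.76 for B2m, 0.67 for H2-D1, 0.44 for Tapbp, -1.62 for Tap1 and -1.95 for Irf1. At a log2 ratio of 1 or more, 4 of the 9 genes were higher and 2 lower at puberty, where 24.0% and 21.4% of the 9869 genes at 10 CPM or more were higher and lower by as much. The median of the 9 was 0.76, against 0.12 over all such genes. Adult over pre-puberty gave 3 higher (Psmb8 2.58, H2-K1 1.68 and B2m 1.48) and 2 lower (Irf1 -1.87 and Tap1 -1.19), against 28.9% and 31.7% of 9754 genes, with a median of 0.35 against -0.03. With 9 genes and 1 sample per stage, nothing particular to the group is read from these counts. Between puberty and adult 0 of the 9 passed in either direction, where 20.7% and 28.4% of 9462 genes were higher and lower in the adult, and the ratios ran from -0.76 for Psmb9 to 0.95 for Psmb8. The 3 comparisons share their stages and are not independent.

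When only the cells with Epcam were compared (115 pubertal, 42 adult and 15 pre-pubertal cells), the puberty over pre-puberty ratio was 2.28 for Psmb8, 2.26 for H2-K1, 1.45 for B2m, 1.33 for H2-D1 and -1.24 for Irf1. Psmb9 was at 0.89, and these 6 genes had the same sign in the comparison of all cells. Tap1 changed its sign, to 1.78, Tap2 was at -0.0037 and Tapbp at -0.12. In the adult over pre-puberty comparison of Epcam cells, Psmb8 was at 3.29, H2-K1 at 2.88, B2m at 2.22 and Irf1 at -1.17. The all-gene median in these comparisons was 0.44 and 0.34.

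The share of cells with a read was compared after each cell had been thinned to 100000 reads. The median number of genes found in a thinned cell still differed, at 2874, 2706 and 2138, so shares in the adult are set against a lower overall detection. For B2m the share was 99.1% before puberty (exact 95% binomial interval 95.3 to 100.0%), 98.3% during it (94.1 to 99.8%) and 95.5% in adults (84.5 to 99.4%). H2-K1 was found in 72.4% (63.3 to 80.3%), 90.8% (84.1 to 95.3%) and 95.5% (84.5 to 99.4%), and H2-D1 in 86.2%, 84.0% and 79.5%. The H2-K1 interval at pre-puberty lay below those at both later stages, while the 3 H2-D1 intervals overlapped.

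The share with a Psmb8 read went from 26.7% (18.9 to 35.7%) before puberty to 58.0% (48.6 to 67.0%) during it, and was 43.2% (28.3 to 59.0%) in adults. Psmb9 was found in 9.48% (4.83 to 16.3%), 26.9% (19.2 to 35.8%) and 11.4% (3.79 to 24.6%), and Tapbp in 45.7%, 63.9% and 25.0%. For both proteasome subunits and Tapbp the share was highest at puberty. Irf1 was found in 91.4% (84.7 to 95.8%), 63.0% (53.7 to 71.7%) and 40.9% (26.3 to 56.8%) of cells. Tap1 was found in 21.6%, 21.0% and 9.09%, and Tap2 in 6.90%, 9.24% and 6.82%, with overlapping intervals. Psmb8 thus had its highest summed level in the adult and its highest share of positive cells at puberty.

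**Figure D2:**
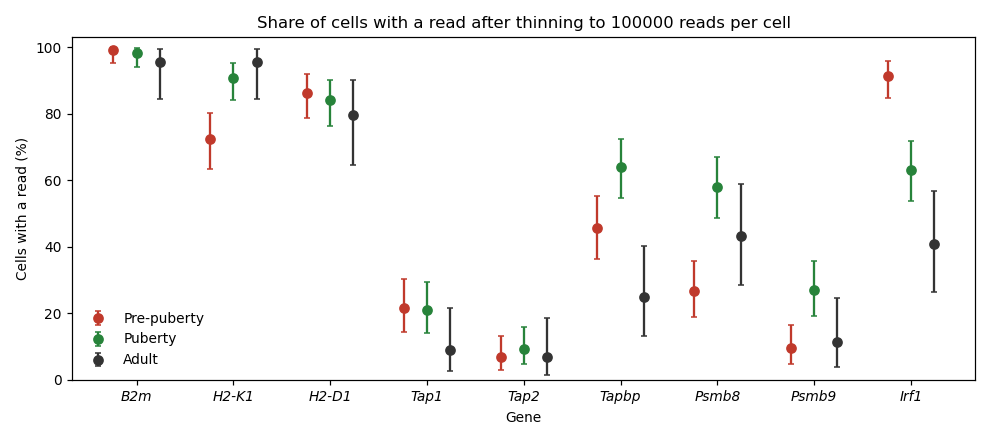
The share of cells with at least 1 read (%, after thinning to 100000 reads) is given for each of the 9 genes by stage, with exact 95% binomial intervals as bars. B2m lies at 95.5% or more at each stage, Irf1 declines in order from 91.4% to 40.9%, and Psmb8, Psmb9 and Tapbp have their highest point at puberty.

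Reads of all 9 genes were seldom found in a single cell. A gene without a read can still be expressed at a level that the reads missed. This applies most to the scarce Tap1 and Tap2. The median thinned cell had a read of 5 of the 9 genes before puberty (quartiles 4 and 5.25), of 5 during puberty (4 and 6) and of 4 in adults (3 and 5). No thinned cell had a read of all 9. Cells with 6 or more made up 25.0% of the pre-pubertal, 49.6% of the pubertal and 11.4% of the adult cells. With all reads the most complete cells had reads of 8, 9 and 8 of the genes. The pubertal cells had both the deepest coverage and the largest share with 6 or more, and the order of the shares was the same with and without thinning at 35.3%, 59.7% and 25.0% with all reads.

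**Figure D3:**
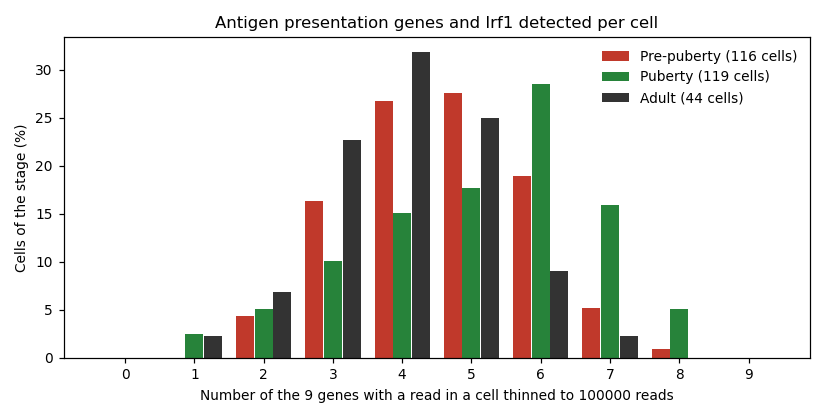
Bars give the percentage of cells of each stage in which a given number of the 9 genes had a read after thinning to 100000 reads. The pubertal bars reach furthest to the right, with 49.6% of cells at 6 or more, against 25.0% at pre-puberty and 11.4% in the adult.

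Across cells of 1 stage the genes went together only loosely. The Spearman correlation of B2m with H2-D1 was 0.24 over 116 pre-pubertal, 0.36 over 119 pubertal and 0.48 over 44 adult cells, and that of B2m with H2-K1 was 0.00, 0.18 and 0.29. At puberty Psmb8 correlated with H2-D1 at 0.39, with H2-K1 at 0.36, with Tapbp at 0.34 and with Psmb9 at 0.31. In the same order of genes the values were 0.05, 0.12, 0.13 and 0.20 before puberty. In adults they were 0.21, -0.04, -0.03 and 0.27. Psmb8 and Psmb9 were both found in 25 of the 119 thinned pubertal cells. The cells of a stage share depth and amplification, and these values are descriptions without a test.

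Among 960 genes found in at least 50% of thinned cells at puberty and in the adult, the 5 most like B2m by the mean of the Pearson correlations at these stages were Cox8a (0.457), S100a11 (0.450), Cox17 (0.430), H2-D1 (0.396) and Crip1 (0.391). Cox8a and Cox17 belong to mitochondrial cytochrome oxidase and its assembly, and S100a11 is a calcium-binding protein. Of the other members only H2-K1 was frequent enough to be ranked, at place 68 (0.229).

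The keratin classes were set by a level above 40 RPKM. At puberty 5 cells had Krt14 only, 80 had Krt8 or Krt18 only, 24 had both and 10 had neither. In the adult the classes held 5, 22, 14 and 3 cells, and at pre-puberty 10, 2, 7 and 97. Sums over 5 cells miss many genes: at puberty 51.7% of 8660 genes were higher and 21.1% lower in the cells with Krt8 or Krt18 only than in those with Krt14 only, with an all-gene median log2 ratio of 1.16, and the median in the adult was 1.72. For this reason the larger class of all Krt14-positive cells, with or without Krt8 or Krt18 (29 pubertal and 19 adult cells), is given beside it. That grouping was added after the data had been seen, and its all-gene medians were 0.11 and 0.14.

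In the pubertal gland the immunoproteasome genes stood higher in cells with luminal keratins only. Psmb8 had 0 reads in the 5 cells with Krt14 only. It stood at 245 CPM (240 to 249) in the 80 cells with Krt8 or Krt18 only. Psmb9 likewise had 0 reads against 70.0 CPM (67.6 to 72.5). With 3 reads over the class taken as the limit of a count of 0, the ratios would be 333-fold and 95.4-fold. That limit covers read depth alone, and with 5 cells no lower bound on either ratio can be given. In the 29 Krt14-positive cells Psmb8 was at 111 CPM and Psmb9 at 1.75 CPM, log2 ratios of 1.10 and 3.47, so Psmb9 was low in the larger class too. Thinned cells with a Psmb8 read made up 70.0% (58.7 to 79.7%) of the cells with Krt8 or Krt18 only and 37.9% (20.7 to 57.7%) of the Krt14-positive cells. The cells are not replicates, and these intervals cannot say whether the classes differ.

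Light and heavy chains differed less by keratin. At puberty B2m was at 1753 CPM in cells with Krt8 or Krt18 only, at 1763 CPM in those with Krt14 only and at 1486 CPM in double-positive cells. H2-K1 was at 546, 154.9 and 323 CPM and H2-D1 at 621, 431 and 712 CPM in the same order. Only H2-K1 passed a log2 ratio of 1 among these 3 genes (1.78 over Krt14 only), and over all Krt14-positive cells its ratio was 0.94.

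Irf1 stood higher in the Krt14-positive cells at both later stages, most of all in those that also had Krt8 or Krt18. It stood at 153.1 CPM in the pubertal cells with Krt8 or Krt18 only, 305 CPM in those with Krt14 only and 650 CPM in double-positive cells, and thinned cells with a read made up 56.3%, 60.0% and 91.7%. The highest cells of these classes were at 1951, 1451 and 2302 CPM. The log2 ratio over all Krt14-positive cells was -1.86. Over cells with Krt14 only it was -0.97, short of the threshold, and kept its sign in 12 of 16 processing alternatives. In the adult the order was the same on the CPM scale, with 89.6, 154.3 and 731 CPM. The ratio there was -2.62 over all Krt14-positive cells and -0.75 over those with Krt14 only. At pre-puberty the 7 double-positive cells were at 695 CPM, the 10 cells with Krt14 only at 401 CPM, the 97 cells without keratin at 1204 CPM and the 2 cells with Krt8 or Krt18 only at 6.33 CPM.

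In the adult Psmb8 was at 595 CPM (580 to 610) in the 22 cells with Krt8 or Krt18 only, 28.9 CPM in the 5 cells with Krt14 only and 155.2 CPM in the 14 double-positive cells, of which 1 cell held 98.7% of the double-positive reads. Psmb8 was found in 59.1% (36.4 to 79.3%) of thinned cells with Krt8 or Krt18 only. In Krt14-positive cells the share was 21.1% (6.05 to 45.6%), and both intervals, which count cells and not mice, overlapped. Psmb9 was at 46.9 CPM against 0.49 CPM in cells with Krt14 only, but 88.7% of the reads of the higher class came from 1 cell. Tapbp was found in 40.9% (20.7 to 63.7%) against 10.5% (1.30 to 33.1%) of Krt14-positive cells, and had 0 reads in the 5 cells with Krt14 only. B2m was at 2470 CPM against 2270 CPM in all Krt14-positive cells, and H2-K1 at 565 against 830 CPM.

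**Figure D4:**
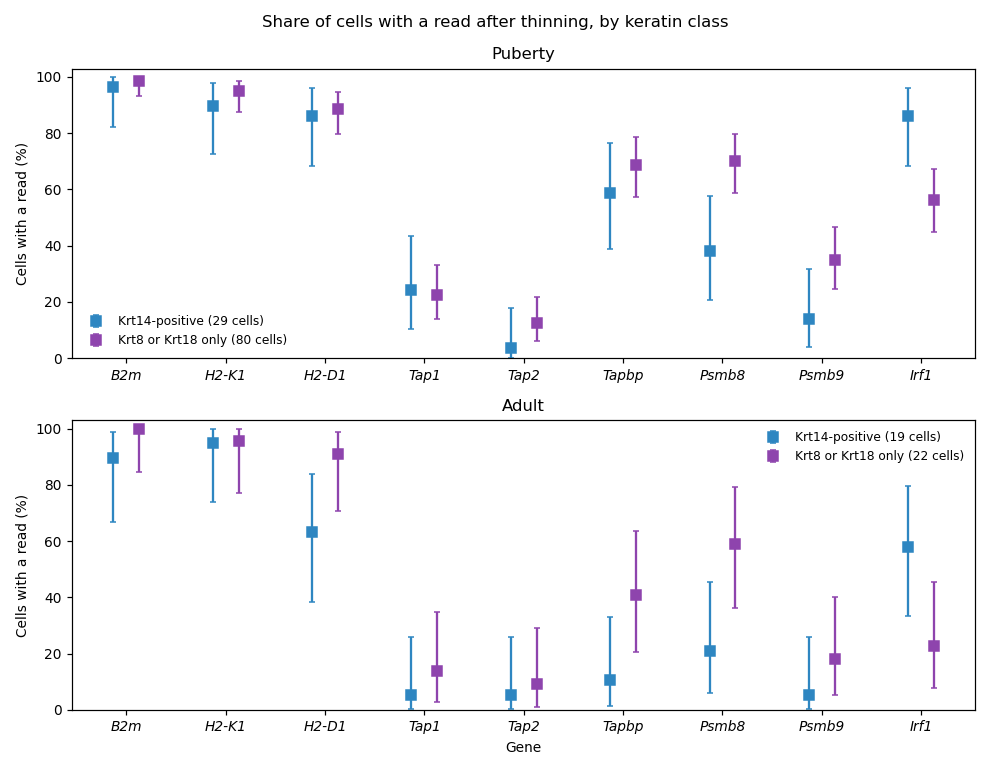
Squares give the share of thinned cells with a read (%) for the 9 genes in Krt14-positive cells (29 pubertal, 19 adult) and in cells with Krt8 or Krt18 only (80 and 22), with exact 95% binomial intervals. Psmb8 is more frequent in the cells with Krt8 or Krt18 only (70.0% against 37.9% at puberty), Irf1 in the Krt14-positive cells (86.2% against 56.3%), and B2m and H2-K1 lie at or above 89.5% in both classes of each stage.

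Counted over the 9 genes, 5 were higher and 0 lower at puberty in cells with Krt8 or Krt18 only than in those with Krt14 only (Psmb8, Psmb9, Tap2, Tap1 and H2-K1), against the 51.7% and 21.1% of all genes given above. In the adult 5 were higher and 0 lower (Tapbp, Psmb8, Psmb9, Tap2 and Tap1), against 58.4% and 24.1% of 7413 genes. Most adult reads of Psmb9, Tap2 and Tap1 came from 1 cell each, as given above. Without the top cell of each gene 4 were higher and 1 lower, with Tap2 at 0.27 and Psmb9 at 1.12. Against all Krt14-positive cells 2 were higher (Psmb8 and Psmb9) and 1 lower (Irf1) at puberty, where 25.4% and 21.8% of 9253 genes passed. In the adult 5 were higher and 1 lower against all Krt14-positive cells, where 37.3% and 33.5% of 8246 genes passed. The same limit applies there to Psmb9, Tap2 and Tap1. At pre-puberty, with 2 cells in one class, 1 was higher and 2 lower than in cells with Krt14 only, against 22.8% and 58.9% of 7070 genes, and 0 were higher and 3 lower than in all Krt14-positive cells, against 18.6% and 62.4% of 7688 genes.

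Other genes of the machinery were described from lists of related genes, whose counts at a log2 ratio of 1 or more are to be read against the 24.0% higher and 21.4% lower of all genes for puberty, and the 28.9% and 31.7% for adult, both over pre-puberty. Psme1 and Psme2, the interferon-inducible proteasome activator subunits, were at 55.7, 197 and 290 CPM and at 42.9, 126 and 173 CPM from the youngest to the oldest stage, and Pomp, the proteasome assembly factor, was at 101, 280 and 471 CPM. Psmb10, the third immunoproteasome subunit, was at 79.9, 44.2 and 63.7 CPM. Of the 4 genes of this list 3 were thus higher at both later stages and 0 lower. The constitutive subunits Psmb5, Psmb6 and Psmb7 gave 0 of 3 higher at puberty and 1 of 3 in the adult (Psmb6, at 232, 431 and 614 CPM), with 0 lower. Peptide-loading and trimming genes were mixed, with 2 of 7 higher (Erap1 1.24 and Pdia3 1.07) and 1 lower (Tapbpl -1.29) at puberty, and with Canx the most abundant at 6394, 8231 and 4755 CPM. In the adult 0 of the 7 were higher and 3 lower (Erap1 -2.17, Tapbpl -1.95 and Sec61a1 -1.57). Of 9 other class I heavy chains 4 reached 10 CPM in either stage and 2 of them (H2-T10 and H2-T23) were higher at puberty, at log2 ratios of 1.64 and 1.20, with 0 lower. Between pre-puberty and adult 4 again reached 10 CPM, of which H2-Q7 (2.83) and H2-T24 (1.03) were higher and 0 lower.

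Receptor and signalling genes were found at every stage while the interferons themselves were close to absent. Jak1 was at 1067, 824 and 786 CPM, and Ifngr1 at 93.5, 48.5 and 83.3 CPM. Of 14 such genes 11 reached 10 CPM in the comparison of puberty with pre-puberty, of which 0 were higher and 1 lower (Socs3, -2.76), against 24.0% and 21.4% of all genes. For adult over pre-puberty 5 of 13 were higher and 3 lower, against 28.9% and 31.7%. Nlrc5, the transactivator of class I genes, was at 1.92, 8.04 and 54.9 CPM and was found in 5.17%, 8.40% and 40.9% of thinned cells. Ifng summed to 0, 0.01 and 0 CPM, and Ifnb1 had 0 reads at each stage. The sums of the MHC class II genes at each stage were at most 5.93 CPM (H2-DMa at puberty), apart from H2-Aa at 155.1 CPM and Cd74 at 58.5 CPM in the adult, where 1 cell held 100% and 99.9% of the reads.

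Interferon-induced genes did not all differ in one direction. Of 25 genes 22 reached 10 CPM in either stage, and 6 were higher and 10 lower at puberty than at pre-puberty, against 24.0% and 21.4% of all genes and with a median log2 ratio of 0.11 against 0.12. Adult over pre-puberty gave 6 higher and 11 lower of 21, against 28.9% and 31.7%, with a median of -1.01 against -0.03. AW112010, an interferon gamma-induced transcript, had 0 reads at pre-puberty and stood at 3337 CPM at puberty and 1415 CPM in the adult, found in 68.1% and 38.6% of thinned cells, and Iigp1, an immunity-related GTPase, was at 21.2, 531 and 353 CPM. The guanylate-binding protein Gbp7 was at 963, 177 and 171 CPM, the GTPase Irgm1 at 406, 133 and 75.0 CPM, and the chemokine Cxcl10 at 178, 9.73 and 42.5 CPM. In the sign of the ratio over pre-puberty Psmb8 was thus with AW112010 and Iigp1, and Irf1 with Gbp7 and Irgm1. Whether these genes are controlled together was not tested.

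**Figure D5:**
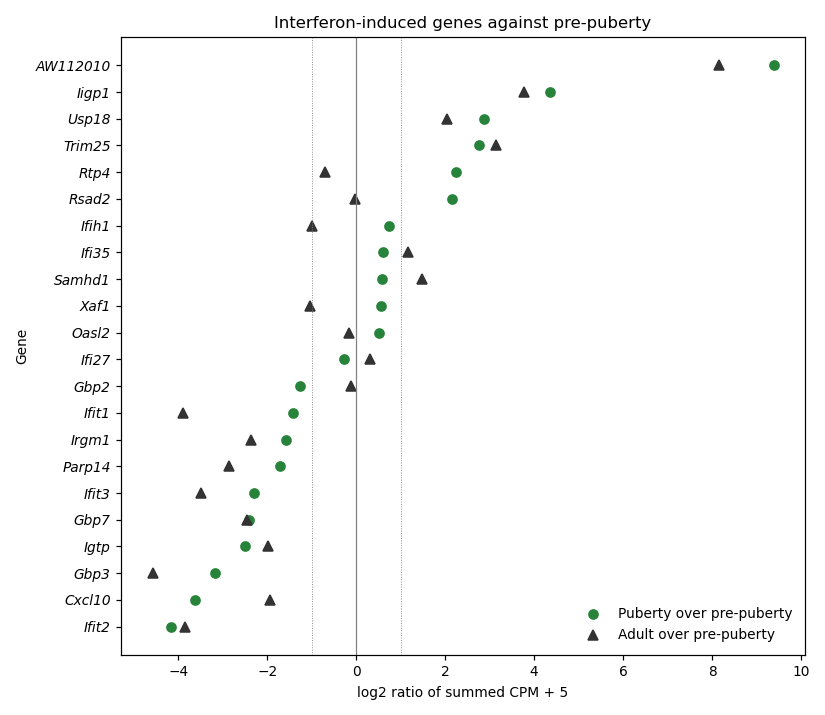
Log2 ratios of summed CPM (with 5 CPM added) over pre-puberty are shown for the 22 interferon-induced genes at 10 CPM or more at some stage, circles for puberty and triangles for the adult, with dotted lines at -1 and 1. AW112010 (9.38 and 8.15) and Iigp1 (4.36 and 3.78) are far to the right and Ifit2 (-4.16 and -3.84) and Gbp3 (-3.17 and -4.58) far to the left.

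Across single cells Psmb8 correlated with AW112010 at 0.42 over 119 pubertal and 0.52 over 44 adult cells (Spearman). The 2 were found together in 60 and 13 thinned cells. Among cells with Krt8 or Krt18 only the correlation was 0.34 over 80 pubertal and 0.42 over 22 adult cells.

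The 1 adult cell with 3 or more of the 15 immune markers had Krt8 or Krt18 only and stood among the cells with most class I transcript. It held B2m at 10914 CPM, H2-K1 at 3333 CPM and H2-D1 at 1345 CPM, and no read of Psmb8, Psmb9, Tap1, Tap2 or Tapbp. Leaving it out changed no count of genes past the threshold between stages or keratin classes.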

How the data were processed

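The deposited files hold raw read counts per gene and cell; the authors aligned read pairs to mm10 with Subread 1.4.6 and assigned them to RefSeq genes with featureCounts, and the files also give a gene length. Treatment of reads that fit several genes is not given in the sources used here. A table of the whole series held the same counts and was not used. Of 27179 gene identifiers 25275 had a current symbol; 15 mitochondrial and 119 ribosomal genes were removed. Counts were summed per stage or keratin class and given as CPM, with exact Poisson intervals, and shares after thinning (seed 7) with Clopper-Pearson intervals, in Python 3.11.15 with numpy 2.4.6 and scipy 1.17.1. Ratios carry 5 added CPM, and a gene counted as higher or lower at a log2 ratio of 1 among genes at 10 CPM or more. Scaling alternatives used edgeR 4.0.16 and DESeq2 1.42.0 factors without their tests. Ratio code was checked on simulated counts. Genes named beside the 9 were the most abundant or most different of each list, the closest to B2m, class markers, and further list genes picked after their values were seen. The 9 genes and the lists were chosen with earlier results of these data known.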

Additional observations from a re-analysis of the deposited data

Results flagged for a closer look

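Cells below the coverage filter were in none of the comparisons, yet their reads held the 9 genes far above the limit of a count of 0. Summed over the 9 genes they stood at 2461 CPM in 28 pre-pubertal cells, 2291 CPM in 17 pubertal cells and 2773 CPM in 22 adult cells, where 3 reads correspond to 5.64, 4.02 and 6.88 CPM. In the pubertal cells below the filter B2m was at 130 CPM and H2-D1 at 814 CPM, against 1652 and 578 CPM in the cells above it.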

How the results depend on the processing

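Counts of the 9 genes past the threshold, higher and lower together, for puberty over pre-puberty (6) and adult over pre-puberty (5) stayed within 1.5 times under every alternative tried. Without pre-pubertal cells 1 to 37, 2 genes were higher at puberty in place of 4 (H2-K1 at 0.77 and Psmb9 at 0.95). With CPM over every gene 2 were higher as well. It was 3 with a stricter filter, edgeR or DESeq2 scaling, equal weight per cell, no top cell, or cells of 200000 to 600000 reads. In Epcam cells it was 5, and at a threshold of 0.58 it was 6. For adult over puberty the count went from 0 to 1 with a stricter coverage filter, 1 with DESeq2 size factors, 1 in Epcam cells, 2 with equal weight per cell, 4 without the top cell of each gene, 4 at a threshold of 0.58 and 5 in cells of 200000 to 600000 reads. Leaving out the top cell moved the all-gene median to -0.72 there and to -0.65 for adult over pre-puberty. With CPM over every gene in the files the all-gene median was -0.01 for puberty over pre-puberty and -0.17 for adult over pre-puberty, and with DESeq2 size factors it was 0.03 for adult over puberty.

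For keratin classes the pubertal count of 5 became 8 without the top cell, 9 in the window of reads (1 cell with Krt14 only), 2 with double-positive cells in both classes and 3 against all Krt14-positive cells. The adult count of 5 became 3 in the window and 8 with keratins above 10 RPKM (again 1 such cell), and the pre-pubertal count of 3 became 5 with keratins called by any read. Of the ratios past a log2 ratio of 1, those that changed sign were, in Epcam cells, Tap1 at 1.78 and Tap2 at -0.0037 (puberty over pre-puberty) and Tap1 at 2.21 (adult over pre-puberty). By keratin at puberty Tap1 was at -0.36 with double-positive cells in both classes and -0.64 against all Krt14-positive cells. In the adult Tap1 was at -1.42 in the window and Psmb8 at -0.30 with keratins by any read, where 1 Krt14 cell remained. At pre-puberty Psmb8 was at -0.58 (stricter filter), -0.19 (without the top cell, any read, or all Krt14-positive cells) and -0.95 (window), Tapbp at 1.95 (any read) and Irf1 at 0.19 (double-positive cells in both). Smaller ratios changed sign as well, among others in these cases. Adult over pre-puberty kept its sign in 9 of 13 alternatives for Tap2 (lowest -0.76) and in 10 of 13 for Psmb9 (lowest -1.67), and adult H2-K1 by keratin in 11 of 16 (lowest -2.45). The cause was not tested.

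No paired analysis was possible because the results come from no test and the cell numbers in the labels do not pair cells between stages. With 1 sample per stage, variation between mice is not measured.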
